A study of Mus musculus with 28 samples.

Results

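The Iroquois homeobox family was followed through its 6 mouse genes, Irx1 to Irx6, which were taken by symbol from a table of read counts for 28244 genes in 28 RNA-sequencing samples. All 6 rows were present. Irx1, Irx2, Irx3 and Irx5 were expressed in neural stem cells (NSCs) from brain and from peripheral tissue, Irx4 was found in tail cells alone apart from 1 read in a lung pNSC sample, and Irx6 never had more than 2 reads in a sample. The samples fell into 11 groups from 3 experiments on peripheral NSCs (pNSCs), which are NSC-like lines grown out of tissues outside the central nervous system.

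In the Nes-GFP experiment (2 samples per group), GFP was driven by Nestin regulatory elements. Tail-pNSC lines came from sorted GFP+ tail cells of mice at postnatal day 1 to 5, and Lung-pNSC lines came from sorted GFP+ lung cells of adults aged 4 to 6 weeks. Brain-NSC (NSCs from whole brain), Tail and Lung (cells of each tissue) stood beside them, with ages not given per group. In the Sox2-GFP experiment (3 samples per group), GFP was knocked in at Sox2. Sox2-GFP lung pNSCs from GFP+ lung cells at postnatal day 1 to 5 stood beside Sox2-GFP brain NSCs, and the Lung samples served as tissue cells here too. In the Wnt1Cre-mTmG experiment (3 samples per group), Cre under Wnt1 regulatory elements, which act in the neural crest and dorsal neural tube, switched a membrane reporter from Tomato to GFP. Wnt1Cre-mTmG Tail pNSCs and Wnt1Cre-mTmG DRG pNSCs came from unsorted cells of tail and dorsal root ganglion (DRG) at postnatal day 1 to 5, and the lines were Tomato+ and GFP-. Wnt1Cre-mTmG brain NSCs and DRG NCSCs, neural crest stem cells of wild-type adults aged 4 to 6 weeks, were the references. The labels give C57BL/6 for every sample, while the methods describe wild-type mice of other and mixed backgrounds. Each pNSC line was picked as a single cluster after 3 weeks in NSC medium with EGF and bFGF, so a group may stand for 1 clone. The study calls its samples biological replicates, but whether those of a group were separate lines or cultures of 1 line was not given. The p-values therefore speak for these samples and not for a spread between lines or animals. They use a spread estimated jointly over genes and over all groups of a fit, not that of each group alone. Between experiments, reporter and line changed together and cannot be told apart, and between the lung pNSC groups donor age changed with them.

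Libraries held 9808246 to 22637031 counts, and the Wnt1Cre-mTmG brain NSCs and Wnt1Cre-mTmG DRG pNSCs were the shallow ones. A reading of 0 allows up to 3 counts, which was 0.130 to 0.295 CPM (counts scaled to a common library size) depending on the library and covers counting error only. All 7 markers of an NSC list reached 1 CPM in each of the 8 NSC and pNSC groups. Their levels still differed, as for Sox1. Its mean was 13.5 CPM in Tail-pNSC and 38.3 in Lung-pNSC against 55.8 in Brain-NSC. In Sox2-GFP lung pNSCs it was 8.79 CPM against 50.1 in Sox2-GFP brain NSCs. Wnt1Cre-mTmG DRG pNSCs held 21.3 CPM and Wnt1Cre-mTmG Tail pNSCs 86.3, against 44.9 in the brain NSCs of that experiment. The DRG NCSCs had 6 of 6 neural crest and Schwann markers, Tail had 4 of 4 keratinocyte and 4 of 4 cartilage markers, and Lung had 6 of 6 lung epithelium markers. Replicate 3 of the DRG NCSCs stood apart from its partners, with a chi-square per gene of 15.9 and 19.9 against 1.09 to 2.74 in every other replicate pair. The fold changes, family sum, correlations and list counts that use this group are therefore given with and without it, a choice made after the data were seen.

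Iroquois genes encode homeodomain transcription factors of the TALE class, whose homeodomain carries extra residues between its first helices. In vertebrates they lie in paralogous clusters called IrxA and IrxB and are known for dividing the early neural tube into territories: Irx3 opposes Olig2 in the spinal cord and Six3 in the forebrain, so that forebrain tissue is low in Iroquois transcripts and more caudal neural tissue is rich in them. Outside the nervous system Irx1, Irx2, Irx3 and Irx5 are used in lung branching, Irx4 in the heart ventricle, Irx3 and Irx5 in limb and heart, and Irx6 in retinal interneurons.

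On GRCm38 with GENCODE vM21, the IrxA cluster lay on chromosome 13, with Irx1 at 71957921 to 71963723 (minus strand), Irx2 at 72628820 to 72634198 (plus) and Irx4 at 73260479 to 73269608 (plus). The IrxB cluster lay on chromosome 8, with Irx3 at 91798525 to 91802067 (minus), Irx5 at 92357625 to 92376286 (plus) and Irx6 at 92674288 to 92680956 (plus). Gaps between neighbours were 665 kb (Irx1 to Irx2), 626 kb (Irx2 to Irx4), 556 kb (Irx3 to Irx5) and 298 kb (Irx5 to Irx6). The non-coding gene Crnde ended 1505 bases from Irx5. The antisense gene Irx3os overlapped Irx3, and the strand setting of the read counting was not given, so reads of Irx3 and Irx3os cannot be told apart.

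The members are shown first by the part of the coding sequence that makes them a family, the stretch of the homeobox that codes for the DNA-recognition helix. Each line gives 75 bases (25 codons) of coding sequence from 1 exon, 5′ to 3′ on the gene's own strand, read from GRCm38. Capitals mark the 63 bases (84%) that were identical in all 6 members.
Irx1: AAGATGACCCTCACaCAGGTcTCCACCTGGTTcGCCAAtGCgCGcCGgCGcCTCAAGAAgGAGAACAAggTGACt
Irx2: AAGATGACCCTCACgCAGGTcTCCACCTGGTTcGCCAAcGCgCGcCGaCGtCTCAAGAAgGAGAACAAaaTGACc
Irx4: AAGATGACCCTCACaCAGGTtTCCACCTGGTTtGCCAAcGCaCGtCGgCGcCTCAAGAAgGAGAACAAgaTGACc
Irx3: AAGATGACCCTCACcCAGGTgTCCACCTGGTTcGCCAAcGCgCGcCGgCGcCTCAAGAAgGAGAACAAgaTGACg
Irx5: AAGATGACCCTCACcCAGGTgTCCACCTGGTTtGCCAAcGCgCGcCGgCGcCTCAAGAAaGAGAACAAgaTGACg
Irx6: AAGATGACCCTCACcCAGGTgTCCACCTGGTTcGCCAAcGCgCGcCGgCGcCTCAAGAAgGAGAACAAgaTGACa
They lay at chr13:71959986-71960060 (Irx1), chr13:72630784-72630858 (Irx2), chr13:73267643-73267717 (Irx4), chr8:91800490-91800564 (Irx3), chr8:92359747-92359821 (Irx5) and chr8:92677356-92677430 (Irx6). Irx3 and Irx6 shared 74 of 75 bases and Irx3 and Irx5 shared 73, while the least alike pairs, Irx2 with Irx4 and Irx2 with Irx5, shared 67. Over whole transcripts the longest identical run was 88 bases between Irx3 and Irx6, 65 between Irx2 and Irx5 and 50 between Irx3 and Irx5, and 23 to 41 for the other pairs. Read length was not given in the sources used here, so a few reads from these runs could have been shared out between members or dropped. Irx6, the closest match to Irx3, had 0 to 2 reads in every sample while Irx3 had up to 1516.

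Promoter sequence was at hand from RefSeq (GRCm38.p6) for 3 of the 6 members and is printed for Irx2 and Irx4, which share the chromosome 13 cluster, Irx2 with reads in all 28 samples and Irx4 in 3. Each line ends at the base before the annotated start of the gene (chr13:72628570-72628819 for Irx2 and chr13:73260247-73260478 for Irx4, both plus strand), and capitals mark the GC box GGGCGG, read on either strand.
Irx2: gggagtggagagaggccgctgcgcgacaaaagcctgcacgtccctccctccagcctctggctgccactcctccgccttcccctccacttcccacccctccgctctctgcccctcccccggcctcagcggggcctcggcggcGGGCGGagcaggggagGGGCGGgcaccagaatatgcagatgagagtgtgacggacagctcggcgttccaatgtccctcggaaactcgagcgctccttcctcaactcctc
Irx4: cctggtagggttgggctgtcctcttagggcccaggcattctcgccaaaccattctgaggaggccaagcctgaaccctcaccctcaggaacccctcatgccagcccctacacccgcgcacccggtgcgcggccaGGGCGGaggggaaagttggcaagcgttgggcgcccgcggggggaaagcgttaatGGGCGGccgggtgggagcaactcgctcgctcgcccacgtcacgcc
Each window held 2 GC boxes and 19 CpG dinucleotides, with a GC content of 68.4% for Irx2 and 68.1% for Irx4. Over 32851 RefSeq promoters of 250 bases, 32.7% held GGGCGG on either strand, and the medians were 52.4% GC and 6 CpG. The Iroquois palindrome ACANNTGT (in 6.31% of promoters), the TALE site TGACAG (15.9%) and the TATA box TATAAA (12.4%) were not among the letters of these windows on either strand. ACANNTGT and TGACAG can share the letters ACA, and the other motifs do not overlap.

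Levels are given as CPM on 1 scale over the 28 samples. Irx1, which is used in lung and dorsal neural patterning, ran from 0.117 to 76.7 CPM over the samples. Sox2-GFP brain NSCs stood at 75.4, 74.2 and 76.7 CPM, and Sox2-GFP lung pNSCs at 43.9, 46.2 and 48.6. Lung cells held 64.4 and 68.3 CPM, Tail cells 38.6 and 36.7, and Lung-pNSC 23.9 and 25.2. The middle of the order was taken by the tail pNSCs of both experiments. Wnt1Cre-mTmG Tail pNSCs held 21.4, 21.3 and 20.2 CPM, and Tail-pNSC 11.8 and 12.8. Wnt1Cre-mTmG brain NSCs (4.20, 4.64 and 5.15), Wnt1Cre-mTmG DRG pNSCs (2.80, 3.94 and 3.85) and Brain-NSC (1.22 and 2.44, from 24 and 50 reads) followed. DRG NCSCs were lowest, at 0.324, 0.378 and 0.117 CPM from 7, 8 and 2 reads. No group's range touched that of its neighbour in this order, so the brain NSC groups of the 3 experiments took places 1, 8 and 10 of it.

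Irx2, which lies beside Irx1 and is used in many of the same tissues, was highest in Tail cells, at 121 and 122 CPM. Lung cells held 63.8 and 59.5 CPM, Sox2-GFP brain NSCs 54.1, 56.0 and 52.7, and Sox2-GFP lung pNSCs 40.5, 37.9 and 40.5. The other 4 pNSC groups sat close together. Lung-pNSC held 24.8 and 23.0 CPM, Wnt1Cre-mTmG DRG pNSCs 22.8, 23.5 and 22.4, Tail-pNSC 22.9 and 20.7, and Wnt1Cre-mTmG Tail pNSCs 19.9, 18.8 and 19.7. Of these, the ranges of Lung-pNSC and the DRG pNSCs overlapped, as did those of the DRG pNSCs and Tail-pNSC. Brain-NSC (11.5 and 12.4), Wnt1Cre-mTmG brain NSCs (3.04, 3.00 and 2.96) and DRG NCSCs (1.02, 0.851 and 0.583) formed the low end, without overlap.

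Irx4, the ventricular member of the IrxA cluster, had 1636 and 1593 reads in the Tail samples, or 91.9 and 102 CPM. Of the other 26 samples, 1 Lung-pNSC sample held 1 read and the rest held none. Tail cells thus stood at 96.8 ± 6.90 CPM (mean ± s.d., n = 2), and no line grown from tail carried a read of it. Keratinocyte markers moved with it: their summed level was 5090 to 5202 CPM in Tail, with 4 of 4 at 1 CPM, and 5.49 to 12.8 CPM in the other 10 groups, with 1 of 4 at 1 CPM in each and no read of Krt5 or Krt14 in the 8 NSC and pNSC groups. Cartilage markers moved with it as well, at 47140 to 48400 CPM in Tail (4 of 4 at 1 CPM) and 9.15 CPM or less elsewhere (at most 2 of 4). Muscle markers also reached 1 CPM in 4 of 4 in Tail alone, with a sum of 188.5 to 193.5 CPM. In Lung they summed to 169.8 to 174.5 CPM (1 of 4), and elsewhere to 2.33 CPM or less (at most 1 of 4). Their part in the Irx4 level was not tested.

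Irx3, the member that opposes Olig2 and Six3 in the neural tube, was highest in Lung cells, at 82.4 and 77.5 CPM. Tail cells held 31.8 and 27.4 CPM, Sox2-GFP brain NSCs 25.3, 26.2 and 26.0, and Wnt1Cre-mTmG DRG pNSCs 18.7, 24.6 and 19.5. Between these and the lowest groups the values drew together. Tail-pNSC held 16.3 and 17.7 CPM, Sox2-GFP lung pNSCs 15.1, 14.7 and 13.5, Lung-pNSC 12.8 and 10.0, Brain-NSC 11.1 and 11.8, and Wnt1Cre-mTmG brain NSCs 7.68, 8.99 and 10.6. Lung-pNSC overlapped both Brain-NSC and the Wnt1Cre-mTmG brain NSCs. Wnt1Cre-mTmG Tail pNSCs stood well below the other pNSC groups, at 2.53, 2.71 and 2.11 CPM, and DRG NCSCs below those, at 0.880, 0.709 and 0.641 CPM.

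Irx5, the IrxB neighbour that is used with Irx3 in heart and limb, followed a similar order. Lung cells held 36.7 and 34.7 CPM, Wnt1Cre-mTmG DRG pNSCs 25.8, 30.1 and 27.1, Sox2-GFP brain NSCs 27.2, 26.8 and 27.5, Tail cells 24.9 and 26.3, and Sox2-GFP lung pNSCs 24.5, 26.3 and 25.4. The DRG pNSCs overlapped the Sox2-GFP brain NSCs, Tail and the Sox2-GFP lung pNSCs, and the last 2 overlapped each other. Lung-pNSC held 20.3 and 22.9 CPM, Tail-pNSC 18.4 and 17.8, Brain-NSC 14.4 and 12.5, and Wnt1Cre-mTmG brain NSCs 9.74, 11.4 and 9.12. Wnt1Cre-mTmG Tail pNSCs were again far below the other pNSC groups, at 1.40, 2.30 and 1.61 CPM from 32 to 50 reads, and DRG NCSCs held 0.231, 0.378 and 0.175 CPM from 5, 8 and 3 reads.

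Irx6, the retinal member, had 0 to 2 reads in each sample and a group mean of at most 0.108 CPM, under the 3-count limit everywhere. Its expression was not detectable at this depth, and it passed the low-count filter of no comparison.

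**Figure D1:**
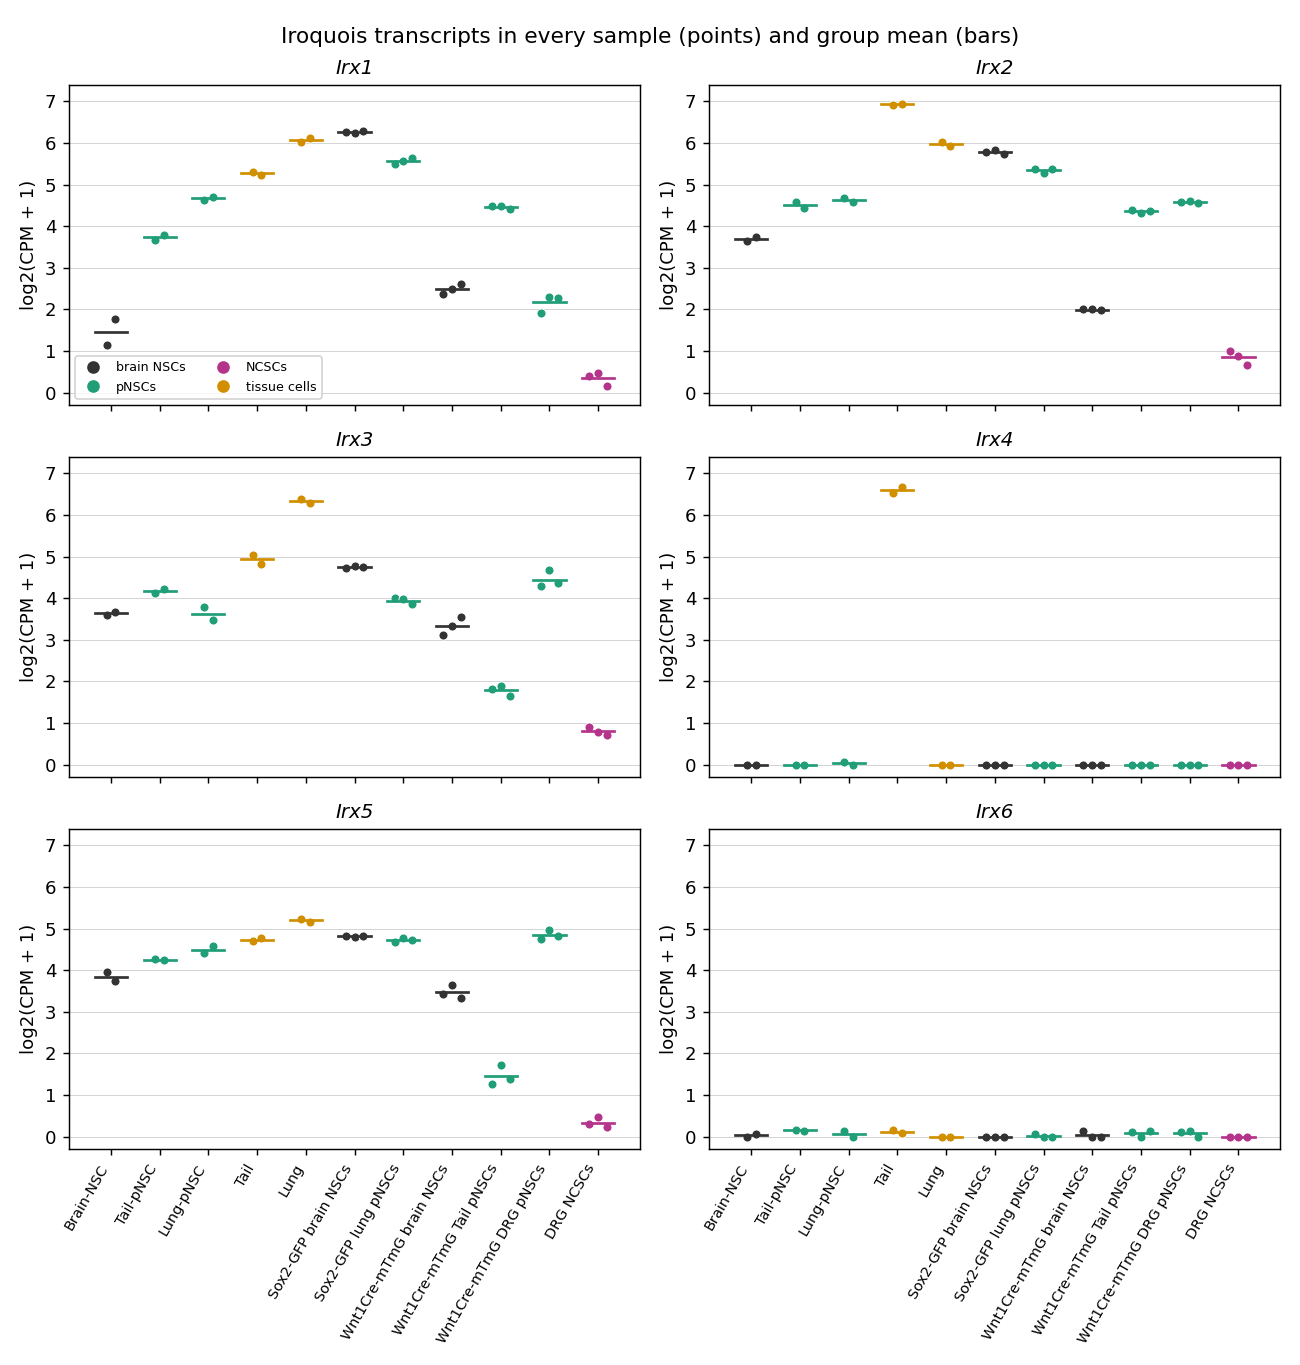
Level of each Iroquois gene (vertical axis, log2(CPM + 1)) in the 28 samples (points) of the 11 groups (horizontal axis), with the group mean as a bar. Irx4 rises from the baseline in Tail alone (91.9 and 102 CPM), Irx6 stays at the baseline, and Irx3 and Irx5 drop together in the Wnt1Cre-mTmG Tail pNSCs and DRG NCSCs.

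The plot of levels by sample shows replicates lying close together beside the distances between groups, with the 2 Brain-NSC values of Irx1 (1.22 and 2.44 CPM) as the widest split above 1 CPM.

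The first question was how each pNSC group differed from the brain NSCs of its own experiment. Calls below are for an adjusted p under 0.05 (edgeR's quasi-likelihood test with Benjamini-Hochberg adjustment over all genes tested) together with a log2 fold change of at least 1 in size. Irx1 was higher in both Nes-GFP pNSC groups. In Tail-pNSC it was 6.68-fold above Brain-NSC (log2 fold change 2.74 ± 0.17 (SE), edgeR adjusted p = 4.77e-59), and in Lung-pNSC 13.2-fold (3.72 ± 0.14, edgeR adjusted p = 1.1e-145). It was the 1 member called in either comparison, where 10.9% and 8.71% of the 16948 genes tested were called. The size of both differences leaned on the pair of Brain-NSC samples: the log2 fold changes were 2.34 and 3.32 without Brain-NSC replicate 1 and 3.33 and 4.31 without replicate 2. These comparisons share the Brain-NSC samples.

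The remaining members differed less in the Nes-GFP lines. Irx2 was higher by 0.86 ± 0.09 on the log2 scale in Tail-pNSC and by 0.99 ± 0.09 in Lung-pNSC (edgeR adjusted p = 5.05e-19 and 6.37e-26), the latter just under the limit and called by DESeq2 (1.02) and without Brain-NSC replicate 2 (1.05) or Lung-pNSC replicate 2 (1.04). Irx5 differed by 0.43 ± 0.10 and 0.67 ± 0.10, and Irx3 by 0.58 ± 0.10 and 0.002 ± 0.112. Irx4 passed the low-count filter of this experiment only through the Tail samples and had no read in Tail-pNSC or Brain-NSC. The median log2 fold change over the 4 expressed members was 0.72 in Tail-pNSC and 0.832 in Lung-pNSC, and over all genes tested it was 0 in both. Beside these differences, all 4 neuron markers were called lower in Lung-pNSC, with a sum of 10.1 to 11.1 CPM (3 of 4 at 1 CPM) against 28.6 to 31.0 CPM (4 of 4) in Brain-NSC. In Tail-pNSC 3 of 8 mesenchyme markers were called higher, with a sum of 10.3 to 11.4 CPM (2 of 8, Pdgfrb without a read) against 8.28 to 10.2 CPM (1 of 8, Dcn and Lum without a read). Their part was not tested.

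The Wnt1Cre-mTmG Tail pNSCs split the family by chromosome. The IrxA genes were higher than in Wnt1Cre-mTmG brain NSCs, Irx1 by 4.50-fold (log2 fold change 2.17 ± 0.12, edgeR adjusted p = 4.42e-11) and Irx2 by 6.51-fold (2.70 ± 0.11, edgeR adjusted p = 6.4e-13). The IrxB genes were lower, Irx3 by 3.69-fold (-1.88 ± 0.17, edgeR adjusted p = 2.41e-08) and Irx5 by 5.65-fold (-2.50 ± 0.17, edgeR adjusted p = 5.79e-10). All 4 members tested were called, where 18.2% of 14448 genes were. Their median log2 fold change was 0.143, between members that moved in opposite directions, and that of all genes was 0.00386. Of 8 mesenchyme markers, 6 were called higher in the same lines and 0 lower, and every marker of the list had reads in both groups. Their sum was 431.5 to 439.9 CPM (8 of 8 at 1 CPM) against 47.9 to 48.7 CPM (5 of 8) in the brain NSCs. Thy1 ran the other way, at 9.07 against 14.1 CPM. Neuron markers had 2 called higher and 1 lower, and neural crest and Schwann markers 1 higher and 2 lower. NSC markers had 2 called higher, muscle and endothelium markers 1 each. Leukocyte markers had 2 called lower and lung epithelium markers 1. Their part in the Iroquois differences was not tested.

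The Wnt1Cre-mTmG DRG pNSCs, from the same experiment and compared with the same brain NSC samples, had both IrxB genes higher. Irx2 rose 7.62-fold (log2 fold change 2.93 ± 0.11, edgeR adjusted p = 1.21e-12), Irx3 2.29-fold (1.19 ± 0.13, edgeR adjusted p = 1.05e-06) and Irx5 2.74-fold (1.46 ± 0.12, edgeR adjusted p = 2.67e-08). Irx1 gave -0.42 ± 0.18 (edgeR adjusted p = 0.0636). Thus 3 of 4 members tested were called, all higher, where 9.53% of genes were called and 3.12% were called higher. Their median log2 fold change was 1.32, beside 0.013 over all genes. Of 8 mesenchyme markers, 5 were called lower and 1 higher, with a sum of 33.3 to 37.0 CPM (3 of 8 at 1 CPM) against 47.9 to 48.7 CPM (5 of 8), and their part was not tested.

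Sox2-GFP lung pNSCs had no member called against Sox2-GFP brain NSCs, where 15.7% of 16234 genes were called by edgeR. At an unadjusted p under 0.05, 3 of the 4 members and 10966 genes passed, and with the adjusted p alone Irx1, Irx2 and Irx3 would be called. DESeq2 called none either. Irx1 was 1.63-fold lower in the pNSCs (-0.70 ± 0.04, edgeR adjusted p = 7.12e-74), Irx2 1.37-fold (-0.46 ± 0.04) and Irx3 1.80-fold (-0.85 ± 0.06), with no overlap of the groups. Irx5 gave -0.09 ± 0.06 (edgeR adjusted p = 0.141). Every one of these values was below 0, whereas in Lung-pNSC those of Irx1, Irx2 and Irx5 were above it. Markers of some other cell types were lower in sum too. Neural crest and Schwann markers summed to 10.6 to 11.2 CPM in the pNSCs (1 of 6 at 1 CPM) against 68.1 to 72.9 CPM (3 of 6, Foxd3 without a read), with 3 called lower. Mesenchyme markers summed to 23.1 to 26.4 CPM (3 of 8, Lum without a read) against 99.3 to 105.7 CPM (2 of 8, Col1a2 without one), with 3 called lower and 1 higher. Neuron markers summed to 18.2 to 19.9 CPM (2 of 4) against 36.9 to 38.4 CPM (4 of 4), with 3 called lower and 1 higher. Other lists did not all fall. Leukocyte and endothelium markers each had 1 called higher and none lower, and cartilage markers had 1 higher and 1 lower. Lung epithelium markers had 2 called lower and keratinocyte markers 1, with none higher. Their part was not tested.

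**Figure D2:**
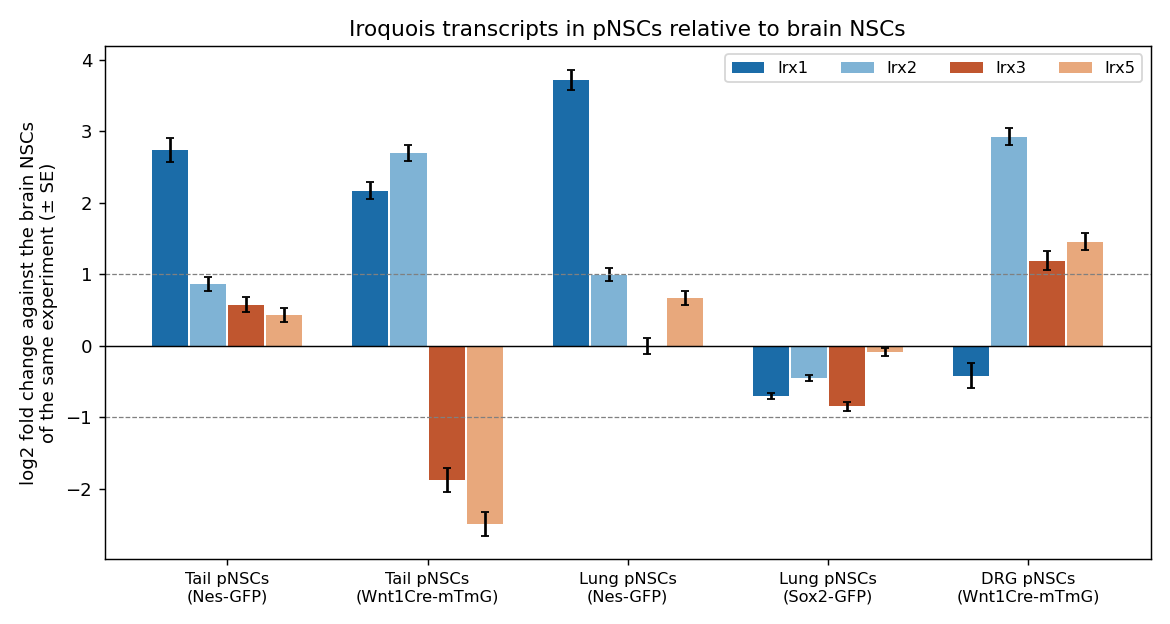
Log2 fold change of Irx1, Irx2, Irx3 and Irx5 (bars, ± SE) in 5 pNSC groups (horizontal axis) against the brain NSCs of the same experiment, with dashed lines at the limit of 1 in either direction. Irx1 leads in both Nes-GFP lines (2.74 and 3.72), the Wnt1Cre-mTmG Tail pNSCs show Irx1 and Irx2 above 0 with Irx3 and Irx5 below it, and the Sox2-GFP bars stay within the limit.

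The bars of pNSCs against brain NSCs differ in shape between lines of the same tissue, and this was tested as the difference of the differences in 1 fit of all 28 samples. For tail, the pNSC effect in the Wnt1Cre-mTmG experiment minus that in the Nes-GFP experiment was 1.83 ± 0.15 for Irx2 (edgeR adjusted p = 2.33e-13), -2.46 ± 0.20 for Irx3 (edgeR adjusted p = 2.36e-13) and -2.93 ± 0.18 for Irx5 (edgeR adjusted p = 1.81e-16). Irx1 gave -0.57 ± 0.23 (edgeR adjusted p = 0.0354), which was not called, and -1.17 without Brain-NSC replicate 2, which was. Thus 3 of the 5 members tested differed, where 16% of 17393 genes did. Among these 5 was Irx4, which had no read in any group of this difference and so could not differ. For lung, the effect in the Sox2-GFP experiment minus that in the Nes-GFP experiment was -4.44 ± 0.15 for Irx1 (edgeR adjusted p = 5.79e-24) and -1.46 ± 0.10 for Irx2 (edgeR adjusted p = 1.04e-15), and 14.1% of genes differed. Irx3 and Irx5 gave -0.86 ± 0.15 and -0.78 ± 0.12, under the limit, and Irx3 came to -1.01 and was called without Lung-pNSC replicate 2. Irx1 was -4.06 without Brain-NSC replicate 1 and -5.04 without replicate 2.

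Both brain and peripheral lines enter those differences, so the brain NSC groups were also set against each other. Sox2-GFP brain NSCs were higher than Brain-NSC in all 4 expressed members: Irx1 by 40.9-fold (log2 fold change 5.35 ± 0.12, edgeR adjusted p = 5.65e-31), Irx2 by 4.54-fold (2.18 ± 0.07), Irx3 by 2.26-fold (1.18 ± 0.10) and Irx5 by 2.02-fold (1.02 ± 0.09), where 19% of 17393 genes were called. Against Wnt1Cre-mTmG brain NSCs the same 4 members were higher, by 16.1-fold for Irx1, 18.1-fold for Irx2, 2.83-fold for Irx3 and 2.70-fold for Irx5, where 15.5% of genes were called. These comparisons share the Sox2-GFP samples. Without Brain-NSC replicate 2, Irx5 in the first of them came to 0.92 and was no longer called, and Irx1 came to 4.96 without replicate 1 and 5.95 without replicate 2.

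Wnt1Cre-mTmG brain NSCs differed from Brain-NSC in the IrxA genes, and in opposite directions. Irx2 was 3.98-fold lower (-1.99 ± 0.13, edgeR adjusted p = 3.79e-16) and Irx1 2.54-fold higher (1.34 ± 0.20, edgeR adjusted p = 7.84e-07), where 12.5% of genes were called. Irx1 gave 0.95 without Brain-NSC replicate 1 and was not called then, and gave 1.94 without replicate 2. Irx3 and Irx5 gave -0.32 ± 0.13 and -0.42 ± 0.11. Line, reporter and experiment cannot be told apart here, and the age of the brain donors was not given per group. The markers of other cell types differed as well: neural crest and Schwann markers summed to 68.1 to 72.9 CPM in Sox2-GFP brain NSCs (3 of 6 at 1 CPM, Foxd3 without a read), 22.5 to 23.6 CPM in Wnt1Cre-mTmG brain NSCs (2 of 6) and 9.94 to 10.0 CPM in Brain-NSC (1 of 6, Foxd3 without a read). Mesenchyme markers summed to 99.3 to 105.7, 47.9 to 48.7 and 8.28 to 10.2 CPM in that order, with 2, 5 and 1 of 8 at 1 CPM. Col1a2 had no read in the Sox2-GFP brain NSCs, and Dcn and Lum had none in Brain-NSC. Their part in the Iroquois levels was not tested.

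A further question was how pNSCs differed from the cells of the tissue that they came from. In both tissues the members that passed the test were lower in the lines. In bulk samples, fewer cells of a type and less RNA per cell cannot be told apart. Tail-pNSC fell below Tail by 3.24-fold for Irx1 (log2 fold change -1.70 ± 0.09, edgeR adjusted p = 3.9e-74) and 5.91-fold for Irx2 (-2.56 ± 0.07), with 46.7% of 16948 genes called and 32.6% called lower. Irx4, which was tested only because Tail expressed it, was at least 598.4-fold lower in Tail-pNSC, taking 3 counts in each library as the most that a reading of 0 allows. Irx3 and Irx5 gave -0.89 ± 0.09 and -0.58 ± 0.09, under the limit. The median over the 4 members with reads in both was -1.29, beside -0.159 over all genes. Mesenchyme markers were lower too: they summed to 72520 to 74420 CPM in Tail (8 of 8 at 1 CPM) and to 10.3 to 11.4 CPM in Tail-pNSC (2 of 8, Pdgfrb without a read), next to the keratinocyte and cartilage markers above. Muscle (4 of 4), neural crest and Schwann (6 of 6), endothelium (3 of 3) and leukocyte markers (3 of 3) were called lower as well, while 3 of 4 neuron markers were called higher. The part of all these markers was not tested.

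Lung-pNSC fell below Lung by 2.77-fold for Irx1 (-1.47 ± 0.07, edgeR adjusted p = 3.45e-85), 2.64-fold for Irx2 (-1.40 ± 0.07) and 7.12-fold for Irx3 (-2.83 ± 0.08), where 55% of genes were called and 34.9% called lower. Irx5 gave -0.77 ± 0.09, and the median of the 4 was -1.44, beside -0.154 over all genes. In the Sox2-GFP experiment, which used the same Lung samples, Irx3 was again lower in the lung pNSCs, by 5.65-fold (-2.50 ± 0.06), where 56.3% of 16234 genes were called. Irx1, Irx2 and Irx5 gave -0.54 ± 0.05, -0.66 ± 0.05 and -0.51 ± 0.06 there. Lung epithelium markers moved with these differences: 6 of 6 reached 1 CPM in Lung with a sum of 28650 to 29350 CPM, and none did in Lung-pNSC (0 to 0.0474 CPM, with Sftpc, Sftpb, Scgb1a1, Epcam and Nkx2-1 without a read) or in Sox2-GFP lung pNSCs (0.0465 to 0.178 CPM, with Sftpb, Scgb1a1 and Nkx2-1 without one). Mesenchyme (8 of 8), endothelium (3 of 3) and leukocyte markers (3 of 3) were also called lower than in Lung in both lung pNSC groups. Cartilage markers went the other way, with 2 called higher in Lung-pNSC and 3 in Sox2-GFP lung pNSCs. Their part was not tested. With at least 43.4% of genes called in any comparison with tissue cells, calls of 1 to 3 members are near what the background gives.

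Tail and Lung cells also differed from each other. Irx4 was at least 552.9-fold higher in Tail, with the same 3-count limit, and Irx2 was 2.04-fold higher (1.03 ± 0.06, edgeR adjusted p = 1.16e-71), while Irx3 was 2.59-fold lower (-1.37 ± 0.07, edgeR adjusted p = 1.26e-78), where 43.4% of genes were called. Irx2 lay at the limit and gave 0.99 without Lung replicate 2, 0.98 by DESeq2 and 0.97 under a stricter filter on low counts. Irx1 and Irx5 gave -0.76 ± 0.07 and -0.42 ± 0.09.

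DRG NCSCs, the peripheral reference of neural crest origin, were nearly without Iroquois transcripts. Against Wnt1Cre-mTmG brain NSCs all 4 members tested were lower, Irx5 by 36.3-fold (-5.18 ± 0.25, edgeR adjusted p = 1.53e-12), Irx1 by 15.9-fold (-3.99 ± 0.26), Irx3 by 11.9-fold (-3.58 ± 0.21) and Irx2 by 3.54-fold (-1.82 ± 0.19), where 36.9% of 14448 genes were called and 14.8% were called lower. Without DRG NCSC replicate 3 these 4 log2 values were -5.00, -3.70, -3.50 and -1.66, all still called. Neural crest and Schwann markers summed to 4255 to 4360 CPM in the NCSCs (6 of 6 at 1 CPM) and 22.5 to 23.6 CPM in the brain NSCs (2 of 6), and mesenchyme markers to 3027 to 3656 CPM (8 of 8) and 47.9 to 48.7 CPM (5 of 8). Neuron (4 of 4) and leukocyte markers (3 of 3) were called higher in the NCSCs as well. Endothelium markers had 2 of 3 called higher and 1 lower, and NSC markers had 5 of 7 called lower. Without DRG NCSC replicate 3 the counts called were the same for these 4 lists of markers. Their part was not tested.

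Both Wnt1Cre-mTmG pNSC groups were above these NCSCs in all 4 members. The DRG pNSCs, grown from the same kind of ganglion, led by 99.7-fold for Irx5 (6.64 ± 0.20, edgeR adjusted p = 2.53e-15), 27.3-fold for Irx3 (4.77 ± 0.18), 27.0-fold for Irx2 (4.75 ± 0.13) and 11.9-fold for Irx1 (3.58 ± 0.28), where 38.3% of genes were called and 15.1% were called higher. Without DRG NCSC replicate 3 the log2 values were 6.46, 4.69, 4.59 and 3.28. The Tail pNSCs led by 71.7-fold for Irx1 (6.16 ± 0.18, edgeR adjusted p = 1.04e-15), 23.0-fold for Irx2 (4.53 ± 0.12), 6.43-fold for Irx5 (2.68 ± 0.33) and 3.24-fold for Irx3 (1.70 ± 0.25), where 37.9% were called. Without that replicate they were 5.86, 4.36, 2.50 and 1.62, and all 4 members stayed called in both comparisons. The NCSC samples are shared by these comparisons, and their ages differed from those of the pNSC donors.

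Lines from different tissues were then set against each other within an experiment. Between Tail-pNSC and Lung-pNSC no member was called by edgeR, where 12.9% of 16948 genes were. At an unadjusted p under 0.05, 3 members and 9564 genes passed. Irx1 was 1.98-fold lower in Tail-pNSC (-0.98 ± 0.10, edgeR adjusted p = 7.06e-23), just under the limit, and was called by DESeq2 at -1.01, without Tail-pNSC replicate 2 at -1.05 and without Lung-pNSC replicate 1 at -1.03. Irx3 gave 0.57 ± 0.10, Irx5 -0.24 ± 0.09 and Irx2 -0.13 ± 0.08 (edgeR adjusted p = 0.192). These lines also differed in donor age. Neural crest and Schwann markers summed to 3.83 to 3.85 CPM in Tail-pNSC (1 of 6 at 1 CPM, Foxd3 without a read) and 9.32 to 9.44 CPM in Lung-pNSC (1 of 6), with 3 called lower in Tail-pNSC, and their part was not tested.

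Between Wnt1Cre-mTmG Tail and DRG pNSCs, which matched in donor age, Irx1 and the IrxB genes went opposite ways. Irx1 was 6.01-fold higher in the Tail pNSCs (2.59 ± 0.13, edgeR adjusted p = 9.81e-12), Irx3 was 8.43-fold lower (-3.08 ± 0.15, edgeR adjusted p = 5.2e-12) and Irx5 15.5-fold lower (-3.96 ± 0.14, edgeR adjusted p = 1.25e-13), where 18% of 14448 genes were called. Irx2, at -0.23 ± 0.08 (edgeR adjusted p = 0.014), stayed under the limit, with the groups side by side at 19.5 ± 0.595 and 22.9 ± 0.577 CPM (s.d., n = 3). All 8 mesenchyme markers were called higher in the Tail pNSCs, with sums of 431.5 to 439.9 CPM (8 of 8 at 1 CPM) against 33.3 to 37.0 CPM (3 of 8) in the DRG pNSCs. Their part in the Iroquois differences was not tested.

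Divided by exon length, so that members could be compared with each other, the family summed to 107 ± 1.59 CPM per kb in Tail, 84.5 ± 1.57 in Lung, 63.4 ± 0.228 in Sox2-GFP brain NSCs and 43.1 ± 0.754 in Sox2-GFP lung pNSCs. The other 4 pNSC groups lay between 15.4 and 27.7 CPM per kb, Brain-NSC at 12.8 ± 0.295, Wnt1Cre-mTmG brain NSCs at 9.23 ± 0.674 and DRG NCSCs at 0.706 ± 0.171. Without DRG NCSC replicate 3 the last was 0.804 ± 0.0321 (n = 2). Make-up differed too. IrxA genes gave 90.5% of the summed CPM per kb in Wnt1Cre-mTmG Tail pNSCs and 82.3% in Tail, against 29.2% in Wnt1Cre-mTmG brain NSCs, 33.7% in Wnt1Cre-mTmG DRG pNSCs and 33.9% in Brain-NSC. Lung-pNSC and Tail-pNSC stood between, at 60.1% and 48.6%, and the Sox2-GFP groups at 71.5% (brain) and 69.0% (lung). In the Wnt1Cre-mTmG Tail pNSCs Irx1 alone made up 51.9% of the sum per kb and Irx5 made up 3.67%, while in the DRG pNSCs of that experiment Irx1 made up 5.42% and Irx5 35.7%.

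**Figure D3:**
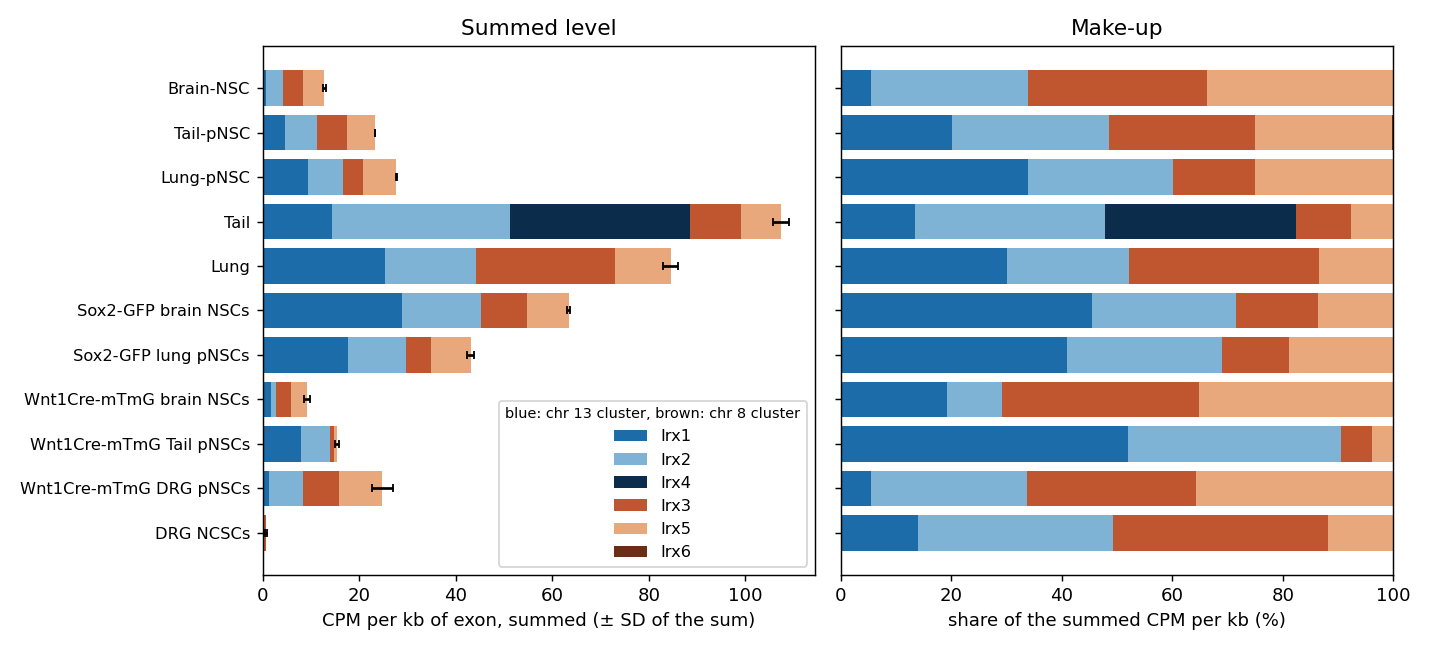
Left, Iroquois level summed over the 6 genes (horizontal axis, CPM per kb of exon, ± SD of the sum) in the 11 groups, with segments for the genes; right, the share of each gene in that sum (%). Blue segments (chromosome 13 cluster) fill 90.5% of the bar in Wnt1Cre-mTmG Tail pNSCs and 29.2% in Wnt1Cre-mTmG brain NSCs, and the dark segment for Irx4 appears in Tail.

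The stacked bars bring out a pair of patterns in the ratio of neighbours, with levels per kb. The level of Irx1 was 0.189 times that of Irx2 in Brain-NSC and 0.193 times in Wnt1Cre-mTmG DRG pNSCs, and 1.95 times in Wnt1Cre-mTmG brain NSCs. Irx3 and Irx5 kept closer to each other, with Irx3 at 0.606 to 1.62 times Irx5 in the 8 NSC and pNSC groups, 1.31 times in Tail and 2.54 times in Lung. In DRG NCSCs, where both had few reads, the ratio was 4.30, 2.12 and 4.15 in replicates 1, 2 and 3.

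Across the 11 groups, on log2(mean CPM + 1), Irx3 and Irx5 had a Pearson r of 0.931 and a Spearman rho of 0.936, and Irx1 and Irx2 of 0.844 and 0.855. The 4 pairs taken across the clusters ranged from 0.596 to 0.776 in r and from 0.636 to 0.891 in rho, and by rho Irx2 with Irx3 (0.891) was above Irx1 with Irx2. Without DRG NCSC replicate 3 the values of r were 0.930, 0.841 and 0.589 to 0.772. Without the DRG NCSCs, over 10 groups and also chosen after the data were seen, they were 0.877, 0.748 and 0.288 to 0.594. These are descriptions: the points share tissue samples, lines and the very low NCSC group, and neighbouring genes on 1 chromosome are not independent.

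**Figure D4:**
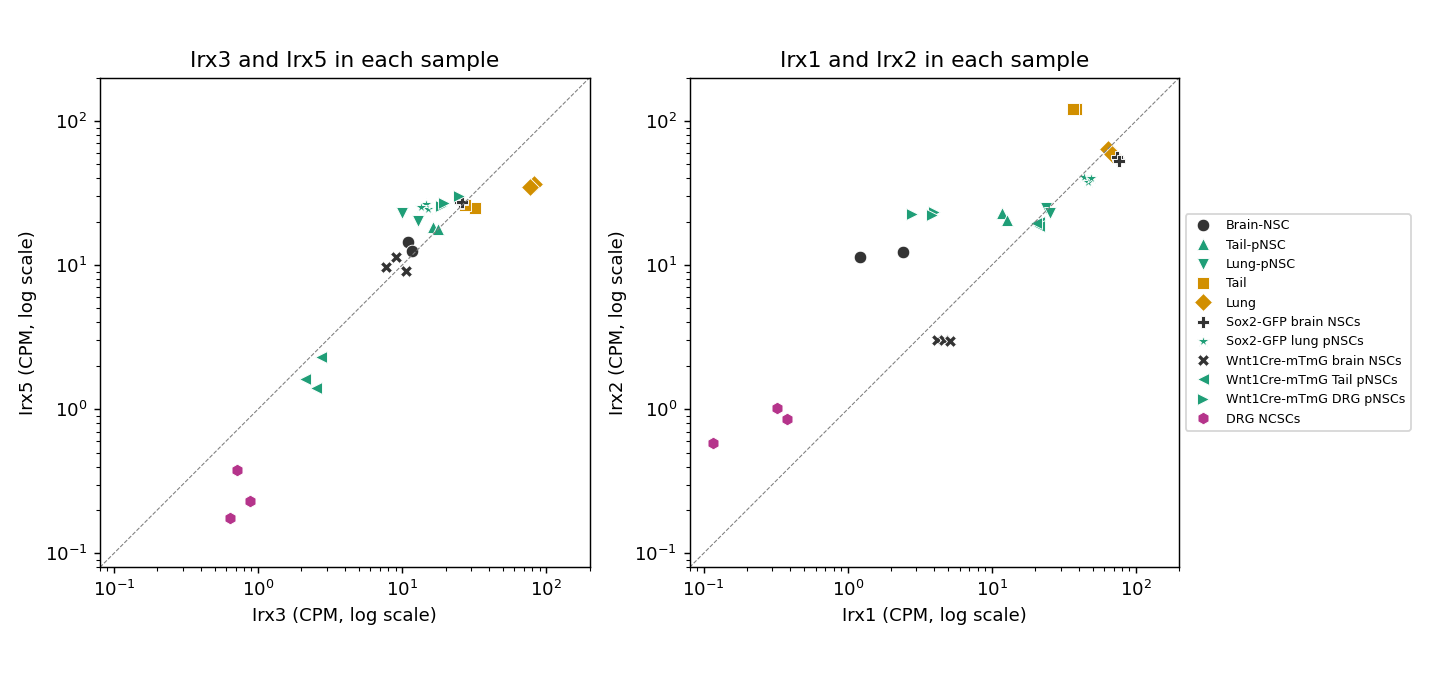
Irx5 against Irx3 (left) and Irx2 against Irx1 (right) in the 28 samples, both axes CPM on a log scale, with equal levels on the dashed line and colours as for the plot of levels (brain NSCs black, pNSCs green, tissue cells orange, NCSCs magenta). Irx3 and Irx5 rise together from the NCSCs (under 1 CPM) to Lung, while at Irx2 levels of 18.8 to 24.8 CPM Irx1 runs from 2.80 CPM in a DRG pNSC sample to 25.2 CPM in a Lung-pNSC sample.

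The scatter of neighbours shows the Wnt1Cre-mTmG Tail pNSCs (2.11 to 2.71 CPM of Irx3) lying between the NCSCs and the other lines on the left and among the other pNSCs on the right.

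Genes whose group means were most like a member's were listed by Pearson r over the same 11 groups, among 16575 genes reaching 1 CPM in a group. For Irx5 these were Epb41 (r = 0.955), Glcci1 (0.948), Crnde (0.940), Mospd3 (0.934) and Kdm1b (0.913). Crnde, which lies beside Irx5, held 8.64 CPM in Tail-pNSC, 8.80 in Brain-NSC, 8.58 in Wnt1Cre-mTmG DRG pNSCs, 2.59 in Wnt1Cre-mTmG brain NSCs, 1.68 in Wnt1Cre-mTmG Tail pNSCs and 0.198 in DRG NCSCs. For Irx3 they were Rag1 (0.939, at 1.58 CPM or less), Epb41, Luc7l2, Fbxl22 and Glcci1, for Irx2 Kcnq1ot1 (0.933), Pik3c2b, Zbtb49, Zfp512b and Pan2, and for Irx1 Slc25a38 (0.914), Id2, Aph1a, Pi4kb and Dcaf5. A high r does not mean a change of like size. Group means of Irx1 ran from 0.273 to 75.4 CPM, those of Slc25a38 from 16.5 to 24.6, Aph1a from 30.5 to 37.9 and Id2 from 17.5 to 104. Each list is the top of 16575 genes over 11 points and was not tested. For Irx4, 619 genes had r above 0.9, and any gene read in Tail alone has nearly this pattern by construction. The 5 listed were 2310079G19Rik, C130079G13Rik, Flg2, Krt34 and Krtap16-1, and the last 3 encode proteins of skin and hair. All 5 were read in Tail alone with r = 1 as rounded here, so their order carries no meaning. With Spearman's rho in place of r, 3 of the 5 genes stayed for Irx1, 1 for Irx5 and none for Irx2, Irx3 and Irx4. Without DRG NCSC replicate 3, 4 of 5 stayed for Irx1 and Irx3, 3 for Irx2 and all 5 for Irx4 and Irx5.

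TALE homeobox relatives of the family (12 genes: Mkx and the Meis, Pbx, Pknox and Tgif genes, many of them cofactors of Hox proteins) were also set against the brain NSCs. At most 2 of 12 were called in a pNSC group, too few to set apart from the share of all genes called. In Tail-pNSC none of 12 was called against Brain-NSC (10.9% of all genes called, median log2 fold change 0.212, 0 over all genes). In Lung-pNSC Meis2 alone was called and fell 4.01-fold (SE 0.07 on the log2 scale, 8.71% of all genes called). In Wnt1Cre-mTmG Tail pNSCs Meis1 (1.10 ± 0.06) and Tgif1 (1.95 ± 0.11) rose (18.2%), and in Wnt1Cre-mTmG DRG pNSCs Mkx (1.54 ± 0.16) and Pbx3 (1.27 ± 0.10) rose (9.53%). In Sox2-GFP lung pNSCs 2 of 12 fell (15.7%), among them Meis2 (-1.91 ± 0.05). Meis2, unlike Irx1, thus took the same direction in both lung pNSC groups, with means of 18.6 and 14.7 CPM against 74.3 and 55.3 CPM in the brain NSCs of their experiments. DRG NCSCs held the relatives at measurable levels, with 2 called higher and 4 lower than in Wnt1Cre-mTmG brain NSCs, where 36.9% of all genes were called, and 2 and 3 without DRG NCSC replicate 3.

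Genes that pattern the neural tube together with Iroquois factors (24 genes, 18 or 19 of them tested within an experiment) were called in both directions in every line. Against the brain NSCs of the same experiment, 4 of 19 were called higher and 7 lower in Tail-pNSC (10.9% of all genes called), 5 and 6 of 19 in Lung-pNSC (8.71%), 6 and 6 of 18 in Wnt1Cre-mTmG Tail pNSCs (18.2%), 4 and 7 of 18 in Wnt1Cre-mTmG DRG pNSCs (9.53%), and 3 and 7 of 18 in Sox2-GFP lung pNSCs (15.7%). Medians ran from -0.511 to 0.143, near the all-gene medians of 0 to 0.013. Several passed the filter through 1 group only, so these counts are no support for a direction. Six3, the forebrain antagonist of Irx3, was at 62.5 CPM in Wnt1Cre-mTmG brain NSCs and fell in the Tail and DRG pNSCs of that experiment, to no read and to 0.0321 CPM. Olig2, the ventral partner of Irx3 in cross-repression, was between 884 and 1382 CPM in all 8 NSC and pNSC groups, among which the group mean of Irx3 ran from 2.45 to 25.8 CPM, and at 14.9 CPM in DRG NCSCs. Nkx6-1, a ventral progenitor factor, was at 73.0 CPM in Tail-pNSC and 90.5 CPM in Wnt1Cre-mTmG Tail pNSCs, 8.90 CPM in the DRG pNSCs and under 1 CPM in the lung pNSC and brain NSC groups. Pax3, a dorsal factor, was at 20.8 CPM in Sox2-GFP brain NSCs, 22.8 CPM in Lung-pNSC and 25.4 CPM in Sox2-GFP lung pNSCs, and had no read in the other brain NSC groups. Olig2 and these levels were chosen from the fixed list after their values were seen.

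Genomic neighbours of the clusters (17 genes, 13 to 15 tested within an experiment) were mostly not called. Against the brain NSCs of the same experiment 2 of 15 were called higher in Tail-pNSC and 1 of 15 in Lung-pNSC, near the 10.9% and 8.71% of all genes. In Wnt1Cre-mTmG Tail pNSCs 4 of 13 were higher (18.2% of all genes called), in Wnt1Cre-mTmG DRG pNSCs 4 of 13 were higher and 1 lower (9.53%), and in Sox2-GFP lung pNSCs 2 of 14 were lower (15.7%). In the DRG pNSCs the neighbours that rose were Ube2ql1 (2.10 ± 0.08), Irx3os (1.82 ± 0.44), Crnde (1.73 ± 0.20) and Nkd2 (1.41 ± 0.23). In Wnt1Cre-mTmG Tail pNSCs, where Irx5 was 5.65-fold lower than in the brain NSCs, Crnde gave -0.62 ± 0.24 (edgeR adjusted p = 0.0323) and was not called, and against the DRG pNSCs it fell by 2.34 ± 0.19 on the log2 scale beside Irx3os (-2.88 ± 0.43). In Wnt1Cre-mTmG brain NSCs Crnde was lower than in Brain-NSC (-1.77 ± 0.16), where Irx5 gave -0.42. Irx3os held 0.0781 to 1.17 CPM in the 9 groups of cultured cells, 1.14 CPM in Tail and 5.83 CPM in Lung, the group with the highest Irx3, and reads of Irx3 may be counted in it. Fto, whose introns hold enhancers of Irx3, stayed between 104 and 191 CPM in all 11 groups, among which the mean of Irx3 ran from 0.743 to 80.0 CPM. It was named for this background after its values were seen.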

How the data were processed

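Poly(A) RNA of the 28 samples was sequenced single-end on an Illumina NextSeq500. The deposited table holds read counts per gene that the authors made with HISAT2 2.2.1, Cufflinks 2.2.1 and htseq-count 1.99.2 on GRCm38, as the submitters' processing notes list them. Strand setting, annotation release and read length are not given in the sources used here. Counts were filtered by group (filterByExpr, minimum count 10, minimum total 15), scaled by TMM and tested with edgeR 4.0.16 (glmQLFit and glmQLFTest, two-sided, in R 4.3.3) in 1 fit per experiment (14 comparisons) or 1 fit of all samples (5 comparisons), with Benjamini-Hochberg adjustment over all genes tested. Genes were called where the adjusted p was under 0.05 and the fold change reached 1 on the log2 scale in either direction. The study's methods name no test of differential expression for the bulk RNA-sequencing. Exon lengths came from GENCODE vM21. A floor of 3 counts stood for a reading of 0. In simulated data, only genes with ample reads were changed, by 2 or 3 on the log2 scale, with the same spread set for all genes. The fits recovered 100 of 100 changed genes at each size, with at most 1 false call. Changes near the limit of 1 and changes in genes with few reads were not simulated, so recovery there is not known. DESeq2 1.42.0 and the other alternatives are given below.

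The members and lists were chosen with earlier results of these data known. Named were the 6 members, at most 4 members of each list per comparison with the largest called change, and for each expressed member the 5 genes most like it. The labels of Tail-pNSC, Lung-pNSC, Brain-NSC, Tail and Lung name no reporter, and their place in the Nes-GFP experiment was taken from the legends of the study. Some list members are not reported here by name.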

Additional observations from a re-analysis of the deposited data

Results flagged for a closer look

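The change of pNSCs against the brain NSCs of their own experiment differed between experiments for 5 member and tissue combinations, by a test of the difference itself (edgeR's quasi-likelihood test in 1 fit of all 28 samples). For tail, the log2 fold change in the Wnt1Cre-mTmG experiment minus that in the Nes-GFP experiment was 1.83 for Irx2, -2.46 for Irx3 and -2.93 for Irx5. Irx3 and Irx5 were called lower than in brain NSCs in the Wnt1Cre-mTmG lines and stood above the brain NSCs, under the limit on the fold change, in the Nes-GFP lines. For lung, the value in the Sox2-GFP experiment minus that in the Nes-GFP experiment was -4.44 for Irx1 and -1.46 for Irx2. The Irx1 difference is made of a brain NSC mean of 75.4 CPM in one experiment and 1.83 CPM in the other beside pNSC means of 46.2 and 24.5 CPM. Each comparison takes its own brain NSCs, and experiment, reporter and line cannot be told apart, nor can donor age for lung, while both tail pNSC groups came from mice of the same age range. No group held 4 or more samples, so an outlying sample could be seen only by comparing replicate pairs, as for DRG NCSC replicate 3.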

How the results depend on the processing

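Groups of 2 or 3 samples, 0 to 2 reads of Irx6 and single-digit read counts of Irx1 and Irx5 in DRG NCSCs limit what could be seen. Of 878 values recomputed under other settings, apart from those added for the DRG NCSCs after the data were seen, 856 kept their direction and their side of the limits. With the adjusted p alone and no limit on the fold change, the members called rose to 4 in Tail-pNSC and 3 in Lung-pNSC against Brain-NSC, 3 between these lines, 5 in Tail-pNSC against Tail, 5 in Tail against Lung, 3 in Sox2-GFP lung pNSCs against brain NSCs and 4 against Lung, 4 in Wnt1Cre-mTmG brain NSCs against Brain-NSC and 4 in the lung difference between experiments. They also rose from 3 to 4 in Lung-pNSC against Lung, between Wnt1Cre-mTmG Tail and DRG pNSCs and in the tail difference. Under the stricter filter (a mean count of 100) Irx3 was not tested in the Wnt1Cre-mTmG experiment, which left 1 call fewer in each of its 6 comparisons, and Tail against Lung fell to 2. By DESeq2, upper-quartile scaling, no filter on low counts, or only the groups compared, 2 members were called in Lung-pNSC against Brain-NSC (Irx2 too, 1.01 to 1.02) and 1 between Tail-pNSC and Lung-pNSC (Irx1). Irx3 in Lung-pNSC against Brain-NSC, at 0.002, ranged from -0.19 to 0.152 when 1 sample was left out (-0.04 without Brain-NSC replicate 1, -0.19 without Lung-pNSC replicate 1) and was -0.00282 with the replicate number as a block. The block changed no call. Same-numbered samples did not deviate together (correlations of -0.0172 to 0.0552, none over 0.1), so the numbers were not taken to pair the samples. Leaving out 1 sample at a time gave 0 to 1 member called between Tail-pNSC and Lung-pNSC, 1 to 2 in Lung-pNSC against Brain-NSC, 2 to 3 in Tail against Lung, 1 to 2 in Wnt1Cre-mTmG brain NSCs and 3 to 4 in Sox2-GFP brain NSCs against Brain-NSC, 3 to 4 in the tail difference (Irx1 at -1.17 without Brain-NSC replicate 2) and 2 to 3 in the lung difference. In the other 12 comparisons the count did not move. The members' levels moved by at most 1.098-fold with DESeq2 size factors and 1.04-fold with upper-quartile scaling.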
